A study of Mus musculus with 36 samples.

Results

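Interferon-stimulated genes (ISGs) are the genes that cells switch on after an interferon signal, and 37 of them were followed here through a glucocorticoid experiment. They were taken as a fixed list of gene symbols, each matched to 1 of the 55487 gene rows of the count table. They are 4 transcription factors (Irf1, Irf7, Irf9, Stat2), 14 antiviral effectors, 3 sensors of RNA or DNA, 6 GTPases, 4 genes of antigen presentation and 6 regulators or less characterised genes. Of the 37, 36 passed the filter on low counts, as did 15489 genes of the whole table. The member that did not pass, Mx1, had at most 17 counts in a library.

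The samples were mouse embryonic fibroblasts (MEFs), primary cells grown from embryos after head and organs were removed, so the culture could hold cells other than fibroblasts. They were treated for 5 h with vehicle or with 1 µM dexamethasone (Dex), a synthetic ligand of the glucocorticoid receptor (GR). Wild-type cells are named GRwt/wt, and GRD/D cells carry a point mutation at the dimer interface of the DNA-binding domain. GRL/L cells carry a point mutation in the ligand-binding domain, GRD+L/D+L cells carry both mutations, and GRko/ko cells lack functional GR. GRwt/wt, GRD/D, GRD+L/D+L and GRko/ko were sequenced in run 1, and a second set of GRwt/wt together with GRL/L in run 2. Each genotype, treatment and run had 3 libraries, 36 in all, so each mutant was compared only with the GRwt/wt of its own run. No interferon, virus or other stimulus was given. All labels state the FVB/NJ strain, whereas the methods of the study describe the GRko/ko line as 129 Sv, so for GRko/ko genotype and strain cannot be told apart. The MEF cultures of a genotype each came from a different mouse, so the libraries of a group are separate cultures. No source used here states that the same number on a vehicle and a Dex library marks the same culture.

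Type I interferons act through the receptor chains Ifnar1 and Ifnar2 on a transcription factor complex that includes Stat2 and Irf9 and binds the interferon-stimulated response element (ISRE). Interferon gamma acts through the gamma-activated site (GAS), and Irf1 is a classical target of that arm. GR is a ligand-activated transcription factor that raises genes such as Tsc22d3 through glucocorticoid response elements (GREs), and glucocorticoids are known to restrain parts of the inflammatory and interferon programme in many cells.

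The promoters show which of these elements the genes carry. RefSeq promoter windows on GRCm38.p6 (250 bases before to 50 bases after the start) were found for 28 of the 37 genes, 33 windows in all. The ISRE was searched as GAAA, any 2 bases and GAAA, the GAS as TTCNNNGAA, and the GRE as AGAACA, any 3 bases and TGTTCT, each on both strands and with overlaps between matches allowed. An ISRE match stood in windows of 17 of the 28 genes and in 54.5% of the 33 windows, against 3.44% of the 32851 promoter windows of all genes. A GAS match stood in windows of 9 genes and in 27.3% of the windows, against 8.3% of all. The full GRE matched in 0 of the 33 windows, and in 0.00913% of all windows, a rate at which 33 windows are too few to show a difference. The GRE half-site AGAACA stood in 4 of the 33 windows (12.1%, in B2m, Oas1a, Oasl2 and Tap1), against 19% of all windows. A match is a run of letters and no measurement of binding. The 250 bases upstream of Irf1 and Isg15 are shown because Irf1 changed most evenly with Dex and Isg15 is the standard marker of the programme, and capitals mark the matches, a GAS in Irf1 and 3 overlapping ISREs in Isg15.
Irf1, chr11:53769764-53770013, plus strand: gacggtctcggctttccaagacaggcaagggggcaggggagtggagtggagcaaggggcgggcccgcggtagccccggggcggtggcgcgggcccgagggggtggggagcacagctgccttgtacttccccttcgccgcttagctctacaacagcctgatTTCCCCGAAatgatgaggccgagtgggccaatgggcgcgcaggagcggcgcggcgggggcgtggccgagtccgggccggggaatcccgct
Isg15, chr4:156200819-156201068, minus strand: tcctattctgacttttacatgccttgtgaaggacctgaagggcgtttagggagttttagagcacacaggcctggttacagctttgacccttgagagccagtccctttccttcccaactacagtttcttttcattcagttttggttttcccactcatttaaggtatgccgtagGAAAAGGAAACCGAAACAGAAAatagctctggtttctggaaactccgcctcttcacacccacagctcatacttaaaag
Stretches of 30 bases around the matches follow for 5 other genes that carry results, an ISRE in Gbp2 (read on the opposite strand) and in Irgm1 (a pair that overlaps), a GAS in Ifi35 and in Psmb8, and a GAS joined to a pair of ISREs in Bst2.
Irgm1, chr11:48871428-48871457, minus strand: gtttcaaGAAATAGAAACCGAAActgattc
Ifi35, chr11:101448409-101448438, plus strand: agaagcagaaTTCACAGAAatgaaagtgga
Gbp2, chr3:142620594-142620623, plus strand: actcttttagTTTCACTTTCactgtcttaa
Psmb8, chr17:34198088-34198117, plus strand: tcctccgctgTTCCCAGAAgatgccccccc
Bst2, chr8:71537583-71537612, minus strand: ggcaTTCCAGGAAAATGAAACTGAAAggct

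Library totals ranged from 15280166 to 19102035 counts in run 1 and from 21532686 to 28662608 in run 2. Levels are given as CPM (read counts scaled to a common library size with TMM factors), changes as log2 fold changes with an approximate standard error (SE), and a gene was called at a Benjamini-Hochberg adjusted p of at most 0.05 over all 15489 genes, by edgeR's quasi-likelihood test. Nr3c1, which encodes GR, stood at 16.1, 18 and 15.9 CPM in GRko/ko and at 67.2, 69.2 and 74.3 CPM in GRwt/wt of run 1 with vehicle. Fibroblast markers summed to between 31800 and 51200 CPM in every library. A list of 20 macrophage markers, none at 0 in any group, summed with vehicle to 45-56.5 CPM in GRD+L/D+L, 285-509 in GRwt/wt of run 1, 1040-1110 in GRD/D, 4280-4660 in GRko/ko, 661-709 in GRwt/wt of run 2 and 1230-1460 in GRL/L. Endothelial markers summed to at most 33.5 CPM and epithelial markers to at most 50.3 CPM. Of 8 plasmacytoid dendritic cell markers, a list that holds the ISG Bst2, Siglech and Ccr9 were at 0 in GRwt/wt and GRko/ko with vehicle, and the sum ran from 83 to 235 CPM. Against GRwt/wt of the same run with vehicle, 4 of the 5 tested were higher in GRko/ko and 4 in GRL/L. In GRD/D 2 were higher, and in GRD+L/D+L 3 were lower. The vehicle sum was 165-170 CPM in GRko/ko and 108-116 CPM in GRwt/wt of run 1. In such bulk RNA, fewer cells of a type and less RNA per cell cannot be told apart.

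At the ISGs, 1 library number stood apart before any comparison. In GRwt/wt of run 2, library 4 was the highest of its 3 at 28 of the 36 ISGs with vehicle and at 31 of 36 with Dex. Dex library 4 also stood apart over all genes, with a mean chi-square per gene of 16.4 and 19.5 against the other 2 Dex libraries, which gave 1.78 between themselves. GRL/L Dex library 2 was likewise the highest of its group at 28 of 36. The largest mean chi-square over all genes was that of GRD/D vehicle libraries 2 and 3, at 26.5, with 8.31 for 1 and 2 and 9.79 for 1 and 3. These libraries enter every GRD/D result. At the ISGs, GRD/D vehicle libraries 1, 2 and 3 were the highest at 14, 12 and 10 of 36. Results that rest on library 4 are given with and without it.

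The transcripts of the interferons that were looked up were almost absent among uniquely mapped reads, and other interferon genes were not counted. Of 9 interferon genes, Ifnb1 and Ifne had 1 count each in the 36 libraries together, and the other 7, among them Ifna4 and Ifng, had 0, which leaves each of the 7 under 3 counts over all libraries. None of the 9 could be tested.

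In GRwt/wt, Dex lowered Irf1 and Irgm1 and raised Ifi35 in both runs, and the number of other ISGs called in run 2 depended on Dex library 4. In run 1, 4 of the 36 ISGs passed the test, 2 higher and 2 lower (11.1%), where 13.9% of all genes tested passed. In run 2, 9 passed, 2 higher and 7 lower (25%), where 31.6% of all genes passed and 16.7% were lower. Without Dex library 4 of run 2, 14 passed, 1 higher and 13 lower (38.9%, and 36.1% lower), where 25.2% of all genes passed and 13% were lower. The ISG share was thus below that of all genes with Dex library 4 and above it without. That fit removed a high library from the Dex side only, because vehicle library 4, the highest at 28 of the 36 ISGs, was kept. Without both number 4 libraries 9 passed, and the share of all genes in that fit was not computed. The larger share without Dex library 4 cannot be told apart from this imbalance. The median log2 fold change of the 36 was -0.0767 in run 1 and -0.129 in run 2, beside -0.00183 and -0.0114 over all genes. No ISG in run 1 and 1 in run 2 (Rsad2) reached an absolute log2 fold change of 1 as well, the limit the study used, which 2.01% and 4.49% of all genes reached. Tsc22d3, a direct GR target, rose by 1.84 and 3.56 on the log2 scale in the same libraries. The runs differed in the Dex change at 0 of 36 ISGs by edgeR (7.09% of all genes) and at 0 by DESeq2.

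**Figure D1:**
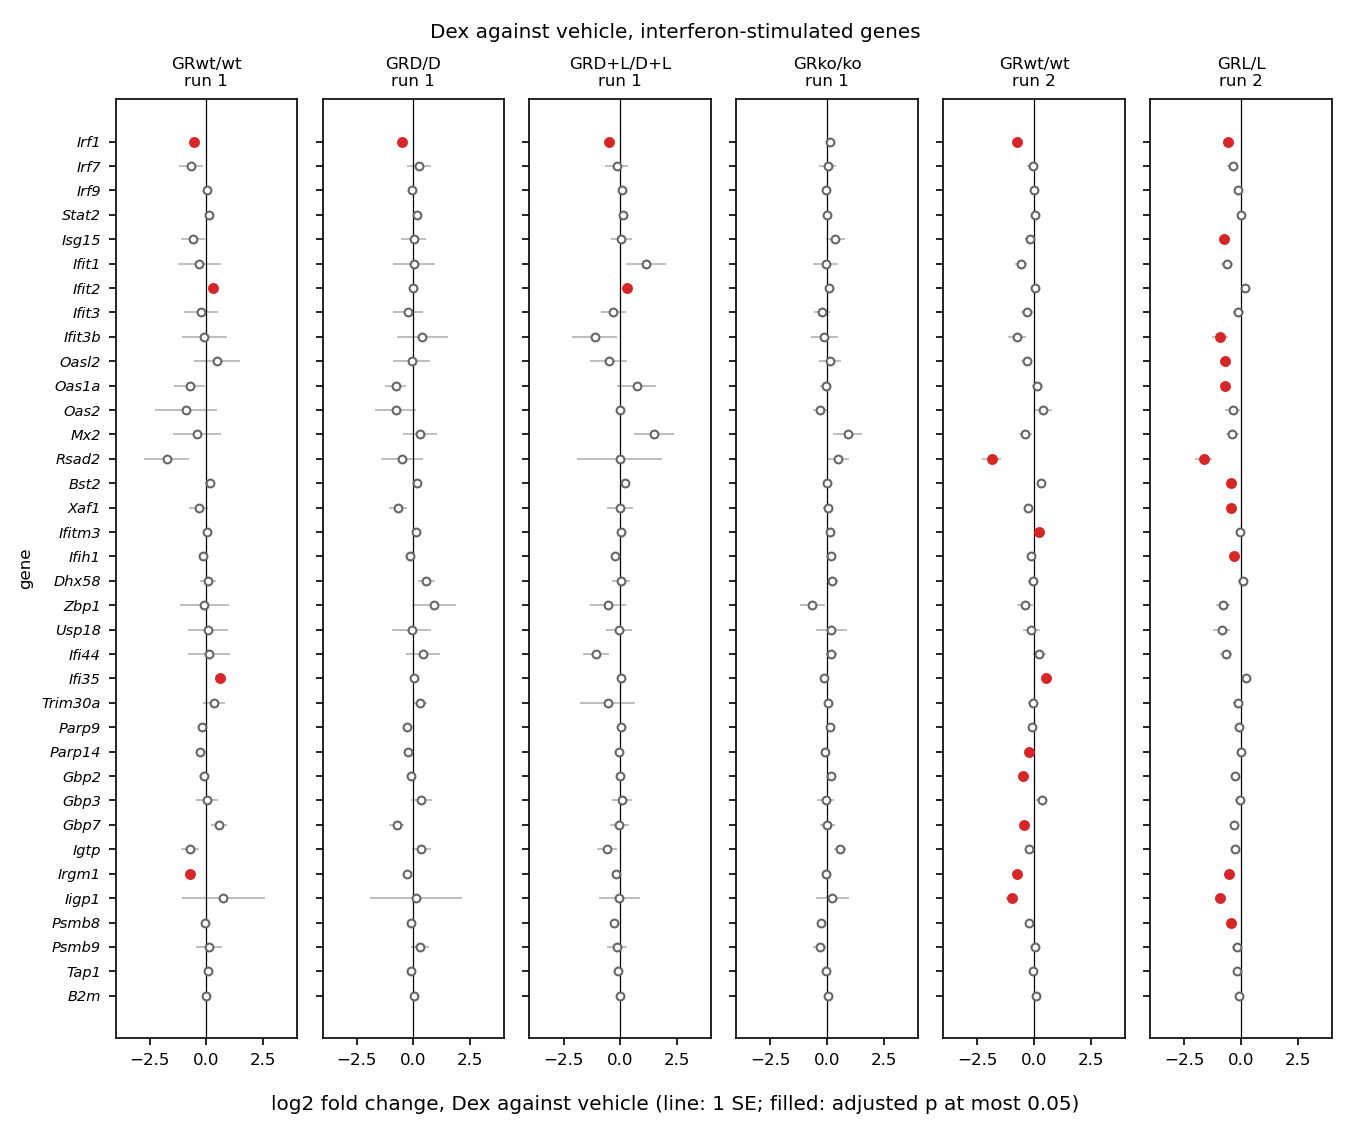
Log2 fold change of Dex against vehicle (x axis) for the 36 tested ISGs (y axis) in each genotype and run. Points are edgeR estimates from 3 against 3 libraries, lines are 1 SE, and filled points passed an adjusted p of 0.05. Irf1 is filled in every panel but that of GRko/ko, and GRL/L holds 12 filled points, all below 0.

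Irf1 (chr11:53770014-53778374, plus strand, mm10) encodes a transcription factor that drives antiviral and antigen presentation genes. In GRwt/wt of run 1 it stood at 13.6, 10.8 and 13.3 CPM with vehicle and 7.62, 8.62 and 9.89 CPM with Dex, and in run 2 at 36.5, 35.2 and 33.9 CPM with vehicle and 21.4, 22 and 18.9 CPM with Dex. All Dex libraries lay below all vehicle libraries of their run, with log2 fold changes of -0.53, SE 0.11, adjusted p = 0.000337 in run 1 and -0.76, SE 0.07, adjusted p = 1.19e-10 in run 2. The fall was also present in the dimerization mutants: GRD/D read 16.9, 14.3 and 14.9 CPM with vehicle and 10.9, 11.2 and 10.3 CPM with Dex, and GRD+L/D+L read 14, 12.3 and 12.3 CPM with vehicle and 10.1, 9.06 and 8.21 CPM with Dex. The changes were -0.50, SE 0.10, adjusted p = 0.000442 in GRD/D and -0.50, SE 0.11, adjusted p = 0.00174 in GRD+L/D+L. They differed from that of GRwt/wt by 0.03 (adjusted p = 0.978) and 0.03 (adjusted p = 0.976) on the log2 scale, each with an approximate SE of 0.15. GRL/L read 32.8, 32.8 and 37 CPM with vehicle and 22.3, 23.7 and 23.1 CPM with Dex, a change of -0.57, SE 0.07, adjusted p = 9.8e-08, and did not differ from GRwt/wt beyond the error (difference 0.19, adjusted p = 0.478). In GRko/ko, which read 14.9, 17.2 and 14.5 CPM with vehicle and 16.5, 17.9 and 16.5 CPM with Dex, the groups overlapped, and the difference from GRwt/wt was 0.66, SE 0.14, adjusted p = 0.00129. Irf1 was thus the one ISG called with Dex in all 5 sets of cells other than GRko/ko. For comparison, Tsc22d3 rose by 0.52 in GRD/D and 0.47 in GRD+L/D+L, against 1.84 in GRwt/wt.

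The other 3 transcription factors showed no called Dex change in any genotype. Irf7, the amplifier of type I interferon production, stood at 1.3, 0.411 and 1.23 CPM with vehicle and 0.355, 0.778 and 0.737 CPM with Dex in GRwt/wt of run 1, and at 4.9, 2.7 and 3.05 with vehicle against 5.46, 2.62 and 2.14 CPM with Dex in run 2. The mutants read 0.469, 0.769 and 0.558 with vehicle against 0.924, 0.642 and 0.603 CPM with Dex (GRD/D), 0.853, 0.704 and 0.953 with vehicle against 0.764, 0.766 and 0.711 CPM with Dex (GRD+L/D+L), 1.88, 1.47 and 1.64 with vehicle against 1.39, 2.13 and 1.56 CPM with Dex (GRko/ko) and 3.52, 3.99 and 4.95 with vehicle against 3.2, 4.17 and 2.37 CPM with Dex (GRL/L). Vehicle and Dex values overlapped in all of these sets. Irf7 shares exon sequence with Phrf1, a gene with 69145 counts against 1571 for Irf7 over all libraries, so its reads are uncertain.

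Irf9 and Stat2 act together in the complex that binds the ISRE. Irf9 stood at 10.2, 12.5 and 10.8 CPM with vehicle and 11.5, 11.3 and 11.3 CPM with Dex in GRwt/wt of run 1, 11.9, 11 and 10.8 with vehicle against 9.84, 12.4 and 10.2 with Dex in GRD/D, 11.1, 10.9 and 9.53 with vehicle against 11.2, 10.8 and 11.1 with Dex in GRD+L/D+L, and 18.6, 16.8 and 18.3 with vehicle against 16.3, 19.1 and 16.2 with Dex in GRko/ko. In run 2 it stood at 30.5, 23.4 and 23.5 with vehicle against 31.4, 23.1 and 22.8 CPM with Dex in GRwt/wt and 25.1, 25.8 and 30.1 with vehicle against 23.1, 27.3 and 22.3 with Dex in GRL/L. Its exons overlap those of Rnf31. Stat2 stood at 17.6, 21.4 and 18.4 CPM with vehicle and 19.6, 22.4 and 20.1 with Dex in GRwt/wt of run 1, 17.6, 15.1 and 17.3 with vehicle against 18.5, 16.4 and 20.2 with Dex in GRD/D, 16.3, 16.8 and 18.3 with vehicle against 17.4, 19.5 and 18.9 with Dex in GRD+L/D+L, and 30.6, 28.6 and 31.5 with vehicle against 28.9, 32.7 and 29 with Dex in GRko/ko. In run 2 it stood at 41.1, 33.4 and 38.5 with vehicle against 40.9, 35.9 and 37.3 CPM with Dex in GRwt/wt and 34.9, 36 and 38.9 with vehicle against 35.2, 38 and 36.1 with Dex in GRL/L. For both genes GRko/ko was the highest set of run 1, and both sets of run 2 were higher than any of run 1 with vehicle.

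Irgm1 (chr11:48861968-48871683, minus strand) encodes an immunity-related GTPase that acts in autophagy and defence against intracellular pathogens. It read 31.3, 26.3 and 31.3 CPM with vehicle and 20.1, 17 and 17.4 CPM with Dex in GRwt/wt of run 1 and 25, 21.3 and 23.3 CPM with vehicle and 16.5, 11.7 and 12.6 CPM with Dex in run 2. Dex lowered it in both runs without overlap, by log2 fold changes of -0.71, SE 0.11, adjusted p = 7.9e-06 and -0.78, SE 0.10, adjusted p = 1.99e-07. GRL/L read 22, 22.2 and 22.1 CPM with vehicle and 13.4, 17.5 and 14.8 CPM with Dex, again without overlap (-0.54, SE 0.10, adjusted p = 0.000107). GRD/D read 25.3, 31.6 and 24.7 CPM with vehicle and 24.6, 20.9 and 22.9 CPM with Dex, with all Dex libraries below the vehicle libraries but no call (-0.26, SE 0.11, adjusted p = 0.12). GRD+L/D+L, with the highest level of the gene, read 55.6, 59.4 and 49.8 CPM with vehicle and 48.3, 50.6 and 45.7 CPM with Dex, and GRko/ko read 29.9, 33.4 and 27.7 CPM with vehicle and 28.9, 30.4 and 29.4 CPM with Dex. The Dex change differed from that of GRwt/wt in GRD+L/D+L by 0.52, SE 0.15, adjusted p = 0.0368, and in GRko/ko by 0.67, SE 0.15, adjusted p = 0.0026. In GRD/D the difference of 0.45 did not pass (adjusted p = 0.134). The GRD+L/D+L call was lost when any of 8 libraries was left out (vehicle or Dex 1, vehicle 3 or Dex 2 of GRD+L/D+L, vehicle 1 or 3 and Dex 2 or 3 of GRwt/wt), with adjusted p from 0.0612 to 0.129.

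Ifi35 (chr11:101448407-101458698, plus strand), an interferon-induced protein that partners with Nmi, was the ISG that Dex raised in both runs of GRwt/wt. It read 11.1, 12.4 and 10.4 CPM with vehicle and 15.6, 18.4 and 17.1 CPM with Dex in run 1 and 17.1, 15.1 and 14.6 CPM with vehicle and 26.3, 20.9 and 19.9 CPM with Dex in run 2. The changes were 0.59, SE 0.11, adjusted p = 0.000149 and 0.52, SE 0.09, adjusted p = 1.85e-05, and without Dex library 4 the latter was 0.39 (adjusted p = 0.000788). Dex and vehicle overlapped in the 3 mutants of run 1: GRD/D read 11.9, 13.5 and 11.2 CPM with vehicle and 13.5, 11 and 13 CPM with Dex, GRD+L/D+L 14.1, 13 and 13.8 CPM with vehicle and 13.7, 14.8 and 13.2 CPM with Dex, and GRko/ko 15.2, 17.2 and 18.3 CPM with vehicle and 16.4, 16.2 and 14 CPM with Dex. The log2 differences from the Dex change in GRwt/wt were -0.55, SE 0.16, adjusted p = 0.0455 in GRD/D, -0.56, SE 0.16, adjusted p = 0.0366 in GRD+L/D+L and -0.71, SE 0.15, adjusted p = 0.00139 in GRko/ko. These 3 tests share the GRwt/wt libraries of run 1. The first was lost without any of 8 libraries (vehicle 1 or 2 or Dex 2 or 3 of GRD/D, vehicle 1 or 3 or Dex 2 or 3 of GRwt/wt), with adjusted p from 0.0613 to 0.183, and the second without any of 8 (vehicle 1 or 3 or Dex 1 or 3 of GRD+L/D+L and the same 4 of GRwt/wt), with adjusted p from 0.0707 to 0.124. GRL/L read 15.7, 14.4 and 16.4 CPM with vehicle and 19.4, 16.9 and 16.7 CPM with Dex, a change of 0.19, SE 0.09, adjusted p = 0.149 that did not pass, and its difference from GRwt/wt did not pass either (-0.32, adjusted p = 0.255).

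**Figure D2:**
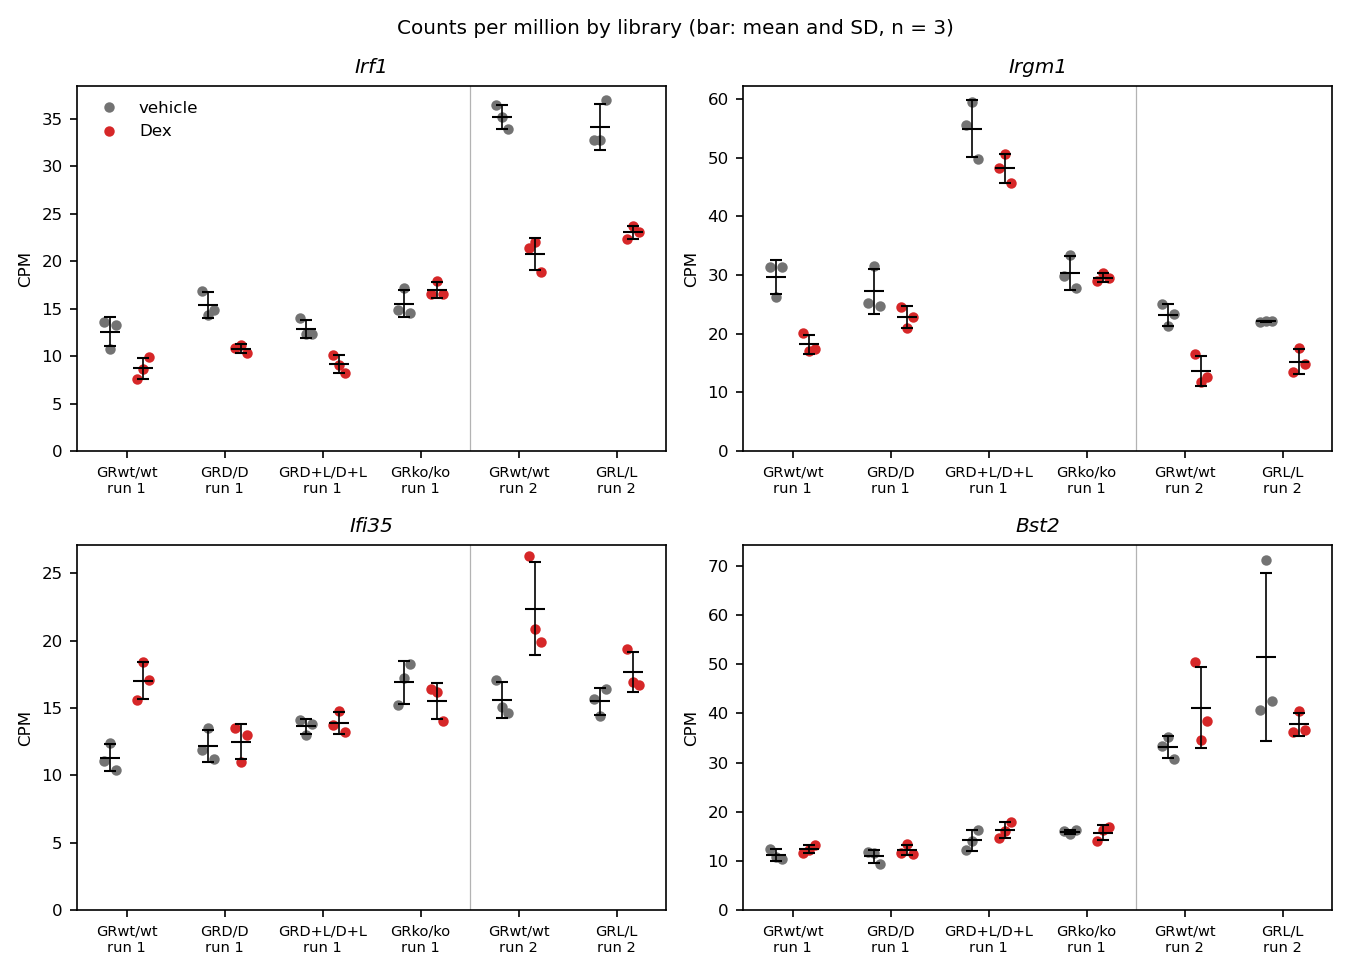
CPM (scaled read counts) of Irf1, Irgm1, Ifi35 and Bst2 (y axis, linear from 0) in each library, by genotype and run (x axis), with vehicle in grey and Dex in red. Black marks are the mean and SD of 3 libraries. Irf1 falls with Dex in every set but GRko/ko, Ifi35 rises in both sets of GRwt/wt, and 1 GRL/L vehicle library holds 71.2 CPM of Bst2.

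Ifit2, an RNA-binding antiviral protein, was the other ISG raised in run 1. It read 14.5, 16.1 and 15.2 CPM with vehicle and 20.6, 16.9 and 18.2 CPM with Dex in GRwt/wt (0.28, SE 0.09, adjusted p = 0.0263) and 14.4, 13.6 and 12.5 CPM with vehicle and 19.1, 15 and 15.8 CPM with Dex in GRD+L/D+L (0.30, SE 0.09, adjusted p = 0.0462). In both sets the Dex libraries lay above the vehicle libraries. The call in GRwt/wt was lost without vehicle 1, vehicle 3 or Dex 1 (adjusted p 0.069 to 0.226), and that in GRD+L/D+L without vehicle 2 or 3 or Dex 1 or 3 (adjusted p 0.0576 to 0.418). With the library number as a block they were lost too (adjusted p = 0.0568 and 0.0966). GRD/D read 13.4, 14 and 13.5 CPM with vehicle and 13.4, 13.5 and 14.2 CPM with Dex, and GRko/ko read 11.8, 12 and 11.9 CPM with vehicle and 12.9, 12.4 and 12.1 CPM with Dex. In run 2, GRwt/wt read 22.5, 22.7 and 20.4 CPM with vehicle and 22.3, 22 and 22.3 CPM with Dex, and GRL/L read 22.7, 19.6 and 23.2 CPM with vehicle and 23.4, 26.8 and 22.8 CPM with Dex. Vehicle and Dex overlapped in GRD/D and in both sets of run 2. In GRko/ko, which lacks functional GR, all Dex libraries also lay above the vehicle libraries, but no change was called.

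Beside Irgm1, a further 3 of the 6 GTPases (Gbp2, Gbp7 and Iigp1) fell with Dex in GRwt/wt of run 2, as did the antiviral Rsad2. Rsad2 (viperin, an antiviral enzyme) read 1.34, 0.693 and 1.11 CPM with vehicle and 0.238, 0.494 and 0.113 CPM with Dex in GRwt/wt of run 2, a change of -1.88, SE 0.42, adjusted p = 0.000492, and 1.45, 1.01 and 1.29 CPM with vehicle and 0.224, 0.383 and 0.565 CPM with Dex in GRL/L, a change of -1.65, SE 0.37, adjusted p = 0.00104. In run 1 the GRwt/wt libraries held 3, 2 and 5 counts with vehicle and 1, 2 and 0 with Dex, GRD/D 1, 3 and 4 against 3, 2 and 0, GRD+L/D+L 0, 0 and 1 against 0, 0 and 1, and GRko/ko 6, 12 and 6 against 15, 14 and 4, so a Dex change was not detectable at this depth. The cell-autonomous defence GTPase Gbp2 read 15, 13 and 11.2 CPM with vehicle and 10.4, 8.44 and 8.68 CPM with Dex in GRwt/wt of run 2 (-0.51, SE 0.12, adjusted p = 0.000724) and 13.2, 12.2 and 14.7 CPM with vehicle and 10, 13.2 and 10.6 CPM with Dex in GRL/L, where it was not called (-0.25, adjusted p = 0.122). All 3 Dex libraries of GRwt/wt were below its vehicle libraries. The GTPase Iigp1 read 4.44, 2.92 and 3.42 CPM with vehicle and 2.61, 1.71 and 1.09 CPM with Dex, without overlap (SE 0.26 on the log2 scale, adjusted p = 0.00244). The GTPase Gbp7 (-0.43) and the ADP-ribosyltransferase Parp14 (-0.23) also fell, and the virus-entry inhibitor Ifitm3 rose by 0.22. Among the 14 ISGs called without Dex library 4, Isg15 (-0.75), Ifit1 (-1.2), Ifit3b, Oasl2, Usp18, Xaf1 and Psmb8 were called in addition, and Gbp7 (adjusted p = 0.217) and Ifitm3 (adjusted p = 0.465) were not. Without both libraries of number 4, 9 were called, 8 lower and 1 higher, and the share of all genes called in that fit was not computed. Ifitm3 was also lost without vehicle 4 or 5 (adjusted p = 0.0919 and 0.108), Gbp7 without vehicle 4 or 5 or Dex 5 (0.0848 to 0.142), and Parp14 without vehicle 4 or 6 or Dex 5 or 6 (0.059 to 0.138). With the library number as a block, Gbp7 (adjusted p = 0.0637) and Parp14 (0.0596) were lost.

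In GRL/L, Dex lowered 12 of the 36 ISGs and raised none. The share of 33.3% stands beside 10.4% of all genes lower and 19.1% called in either direction. Of the 36, 33 had a log2 fold change below 0, with a median of -0.348 against -0.00913 over all genes. The 12 were the ubiquitin-like modifier Isg15 (-0.74), Ifit3b (-0.93), the RNA-activated synthetase Oas1a (-0.70) and its relative Oasl2 (-0.73), Rsad2, the RNA sensor Ifih1 (-0.33), the virion tether Bst2 (-0.45), Xaf1 (-0.46), Irf1, Irgm1, Iigp1 (-0.91) and the immunoproteasome subunit Psmb8 (-0.46, adjusted p = 0.000277). Isg15 read 6.86, 10.3 and 7.82 CPM with vehicle and 3.95, 7.11 and 4.1 CPM with Dex, with 1 Dex library inside the vehicle range, and 8.39, 5.76 and 5.42 CPM with vehicle and 9.62, 3.61 and 4.14 CPM with Dex in GRwt/wt of run 2. Of the 12, 4 (Iigp1, Irf1, Irgm1 and Rsad2) were among the 9 called in GRwt/wt of run 2, 33.3% of the one list and 44.4% of the other. Without Dex library 4 of GRwt/wt, 9 of the 12 (Isg15, Ifit3b, Oasl2, Xaf1 and Psmb8 in addition) were among the 14 called there, 75% of the one list and 64.3% of the other. That fit kept the high vehicle library 4, and the overlap without both number 4 libraries was not counted. The count in GRL/L was 6 without Dex 1, without Dex 3 or without vehicle 2, 6 with DESeq2 and 5 with only the libraries of run 2 in the fit. Irf1, Irgm1, Rsad2, Psmb8 and Iigp1 were called in each of these, and Isg15, Ifit3b, Oasl2, Oas1a, Ifih1 and Xaf1 were lost in each. Iigp1 was lost without vehicle 3 (adjusted p = 0.0618). Without Dex 2 the value of Ifih1 was -0.50 (adjusted p = 0.00192). The macrophage markers summed to 1010-1290 CPM with Dex and 1230-1460 with vehicle in GRL/L, where 6 of the 20 fell and 2 rose with Dex, and their part in the counts was not tested.

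The Dex change of GRL/L differed from that of GRwt/wt at 1 ISG, Bst2 (1.85% of all genes). Bst2 (chr8:71534255-71537456, minus strand) read 40.7, 71.2 and 42.5 CPM with vehicle and 36.2, 40.5 and 36.7 CPM with Dex in GRL/L and 33.4, 35.2 and 30.8 CPM with vehicle and 50.4, 34.7 and 38.4 CPM with Dex in GRwt/wt of run 2. The difference was -0.76, SE 0.18, adjusted p = 0.0181. The vehicle library 2 of GRL/L with 71.2 CPM lay far above the other 2, and without it the difference did not pass (adjusted p = 0.104), nor did it without GRL/L Dex 1 (0.0538) or GRwt/wt Dex 4 (0.0881). The fall of Bst2 in GRL/L was also lost without that vehicle library (adjusted p = 0.427). In run 1, Bst2 read 12.5, 10.7 and 10.3 CPM with vehicle and 11.6, 12.2 and 13.2 CPM with Dex in GRwt/wt, 11.8, 11.6 and 9.32 CPM with vehicle and 11.7, 13.5 and 11.5 CPM with Dex in GRD/D, 12.2, 14 and 16.3 CPM with vehicle and 14.7, 16 and 18 CPM with Dex in GRD+L/D+L, and 16.1, 15.5 and 16.2 CPM with vehicle and 14, 16.3 and 16.9 CPM with Dex in GRko/ko, with no called Dex change.

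In GRD/D, Irf1 was the only ISG called with Dex, 1 of 36 (2.78%) where 11.9% of all genes passed. In GRD+L/D+L, Irf1 and Ifit2 were called, 2 of 36 (5.56%) where 5% of all genes passed. In GRko/ko, edgeR called 0 of the 36 ISGs and 0 of all genes (0%), with a lowest adjusted p of 0.356, DESeq2 also called 0 ISGs, and 2 ISGs (Psmb8 and Igtp) had an unadjusted p under 0.05, as did 5.55% of all genes. The Dex change differed from GRwt/wt at 1 ISG in GRD/D (3.29% of all genes), 2 in GRD+L/D+L (3.23%) and 3 in GRko/ko (8.48%), which are those given above.

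Without Dex, ISG levels differed far more between the runs than between most genotypes. In vehicle-treated GRwt/wt, all 36 ISGs differed between run 2 and run 1, 35 higher and 1 lower in run 2. Over all genes 72.4% differed, 40.2% higher. The median log2 difference was 2.09, against 0.0902 over all genes, and 31 of the 36 reached an absolute difference of 1, as did 22.8% of all genes. The one lower gene was Irgm1 (-0.36, SE 0.10, adjusted p = 0.00228). Isg15 read 1.43, 1.71 and 0.908 CPM in run 1 and 8.39, 5.76 and 5.42 CPM in run 2. Ifit1, which binds viral RNA ends, read 0.324, 0.274 and 0.324 and 6, 3.79 and 4.05 CPM. Counts of the GTPase Iigp1 were 1, 0 and 0 in run 1 and 126, 80 and 92 in run 2, a ratio of 164 (95% exact interval 29.2 to 6490, counting error only). For Ifit1, Mx2, Gbp3, Igtp, Parp9 and Usp18, with log2 differences of 3.88, 3.83, 1.81, 2.39, 1.16 and 2.74, and for Irf7, this was the one comparison that called them in the main fit. The fit without Dex library 4, which kept vehicle library 4, also called Ifit1 (-1.2) and Usp18 (-1.14) with Dex in GRwt/wt of run 2. The run, the set of cultures and the depth cannot be told apart. Mx1, below the filter, held 0 counts in the vehicle libraries of GRwt/wt in run 1 and 26 in those of run 2, at least 4.76-fold higher (against a floor of 3 counts over the group), and 14 in GRko/ko, at least 4.2-fold higher. Macrophage markers were also higher in run 2, at 661-709 against 285-509 CPM, and their part was not tested.

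**Figure D3:**
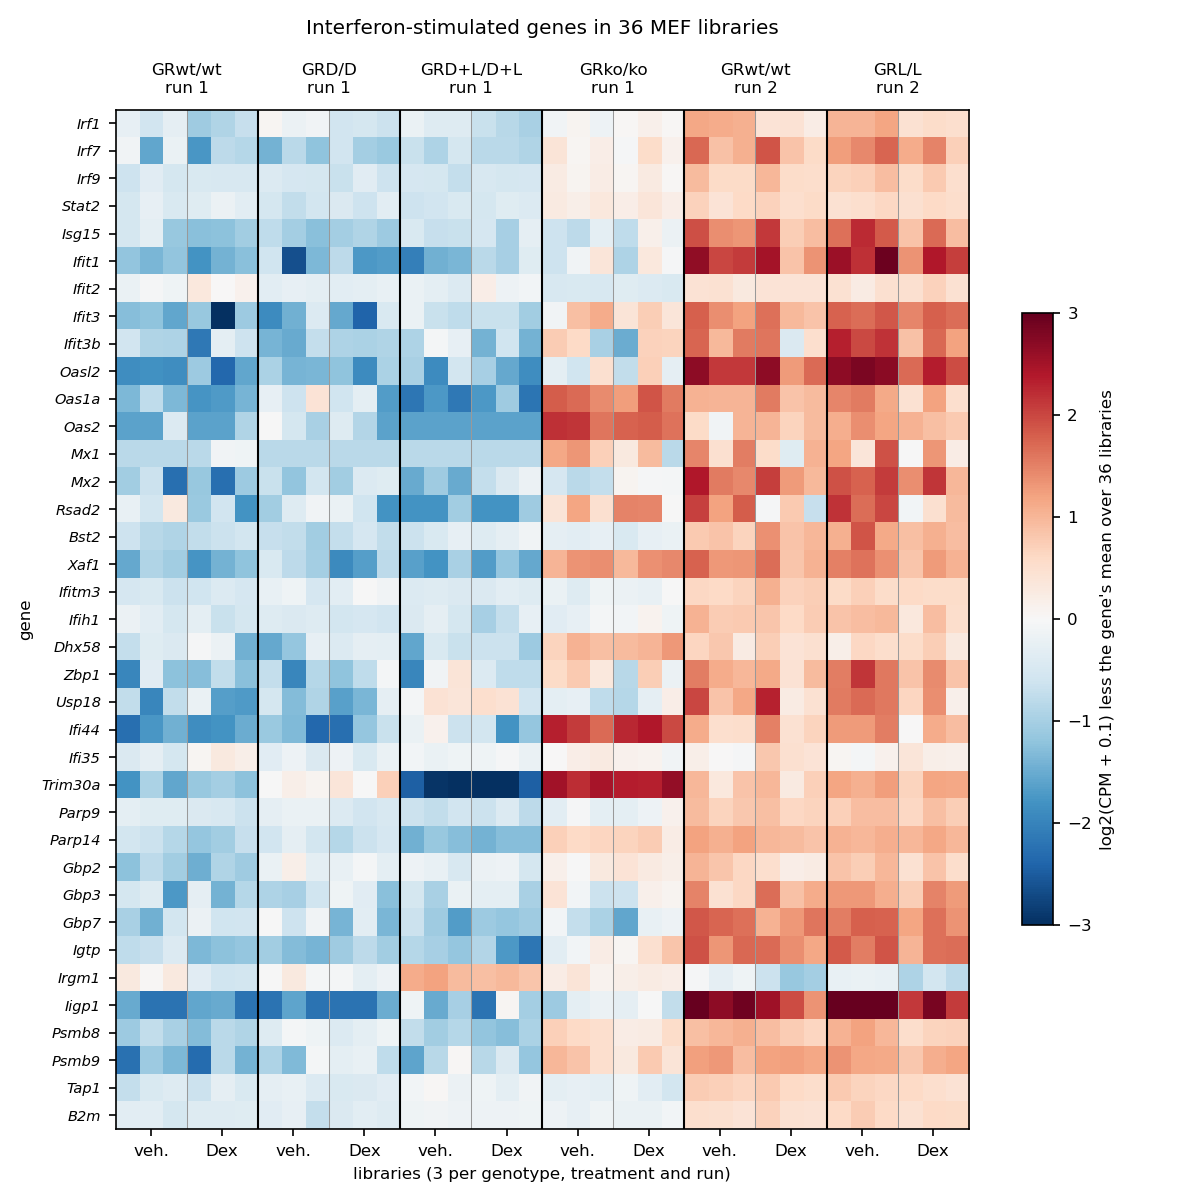
Level of the 37 ISGs (rows) in the 36 libraries (columns, 3 per genotype, treatment and run), as log2(CPM + 0.1) less the mean of the gene over all libraries, from blue (lower) to red (higher) and cut at 3. The 12 libraries of run 2 are red at nearly all genes but Irgm1, GRko/ko is red at Oas1a, Oas2, Ifi44, Xaf1 and Trim30a, and GRD+L/D+L is red at Irgm1 and blue at Trim30a.

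Among the genotypes, vehicle-treated GRko/ko stood out, with 21 ISGs higher and 1 lower than GRwt/wt of run 1. The 61.1% called stand beside 45.7% of all genes, and the 58.3% higher beside 24.4%. Of the 36, 35 had a log2 difference above 0, with a median of 0.81 against 0.0137 over all genes, and 14 called genes reached an absolute difference of 1, as did 14.2% of all genes. By role, 7 of 13 tested antiviral effectors were higher and 1 lower, 3 of 4 transcription factors were higher, as were 2 of 3 sensors, 2 of 6 GTPases, 3 of 4 antigen presentation genes and 4 of 6 regulators. The macrophage markers summed to 4280-4660 CPM in GRko/ko and 285-509 in GRwt/wt in the same libraries, 20 of 20 higher, and their part in these counts was not tested. Genotype and strain cannot be told apart for GRko/ko, as given above, and this holds for each of its vehicle differences.

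Trim30a (chr7:104409025-104465193, minus strand), a tripartite-motif regulator of innate signalling, had the smallest adjusted p. It read 7.12, 5.73 and 6.83 CPM in GRko/ko and 0.26, 0.548 and 0.324 CPM in GRwt/wt, a log2 difference of 4.11, SE 0.29, adjusted p = 7.99e-15. GRD/D lay between at 1.14, 1.32 and 1.23 CPM (1.70, SE 0.39, adjusted p = 0.00295), and GRD+L/D+L lay below with 2, 1 and 0 counts, or 3 in all against 17 in GRwt/wt, a GRwt/wt level 5.68 times higher (95% exact interval 1.64 to 30.3). In that set the edgeR call (adjusted p = 0.0165) was lost without GRD+L/D+L vehicle 3 or GRwt/wt vehicle 2 (adjusted p = 0.0808 and 0.0888). With Dex the values were 0.473, 0.519 and 0.43 CPM in GRwt/wt, 1.52, 1.15 and 1.94 in GRD/D, 0, 0 and 0.129 in GRD+L/D+L and 6.27, 6.19 and 7.66 in GRko/ko. In run 2 they were 2.4, 1.46 and 2.15 CPM with vehicle and 2.38, 1.41 and 1.96 CPM with Dex in GRwt/wt and 2.74, 2.53 and 2.87 CPM with vehicle and 1.9, 2.73 and 2.69 CPM with Dex in GRL/L. The order of the 4 sets of run 1 was that of the summed macrophage markers given above (GRD+L/D+L, GRwt/wt, GRD/D, GRko/ko), and Ptpn6, a phosphatase of blood cells, took the same order (-1.85, 1.20 and 4.26 against GRwt/wt). The part of such cells in these differences was not tested.

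Ifi44, an interferon-induced cytoplasmic protein, held 163 counts in GRko/ko and 6 in GRwt/wt over 3 vehicle libraries each, a ratio of 24.5 (95% exact interval 11 to 67.6). By library it read 3.88, 3.29 and 2.47 CPM against 0.0649, 0.137 and 0.195 CPM, and 0.591, 0.768 and 0.408 CPM in GRD+L/D+L, where 27 counts gave a ratio of 4.49 (1.81 to 13.3). The GRD+L/D+L rise, in the set with the lowest macrophage marker sum, was lost without its vehicle 2 or GRwt/wt vehicle 1 (adjusted p = 0.0728 and 0.0695). GRD/D read 0.268, 0.22 and 0.0558 CPM. With Dex the sets of run 1 read 0.118, 0.13 and 0.184 (GRwt/wt), 0.066, 0.257 and 0.402 (GRD/D), 0.446, 0.128 and 0.258 (GRD+L/D+L) and 3.71, 4.13 and 3.05 CPM (GRko/ko). Run 2 read 1.62, 1.02 and 1.04 CPM with vehicle and 2.18, 0.988 and 1.17 CPM with Dex in GRwt/wt and 1.83, 1.83 and 2.21 CPM with vehicle and 0.708, 1.62 and 1.41 CPM with Dex in GRL/L. The synthetase Oas2 held 57 counts against 2, a ratio of 25.7 (6.78 to 217), Zbp1, a sensor of Z-form nucleic acid, 24 against 4 (5.4, 1.86 to 21.4), Oasl2 35 against 6 (5.25, 2.19 to 15.3), and Iigp1 12 against 1 (10.8, 1.6 to 462). Zbp1 was lost without GRwt/wt vehicle 1 (adjusted p = 0.0589), Oasl2 without GRko/ko vehicle 3 (0.0761), and Iigp1 without vehicle 2 or 3 of either set (0.105 to 0.136).

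**Figure D4:**
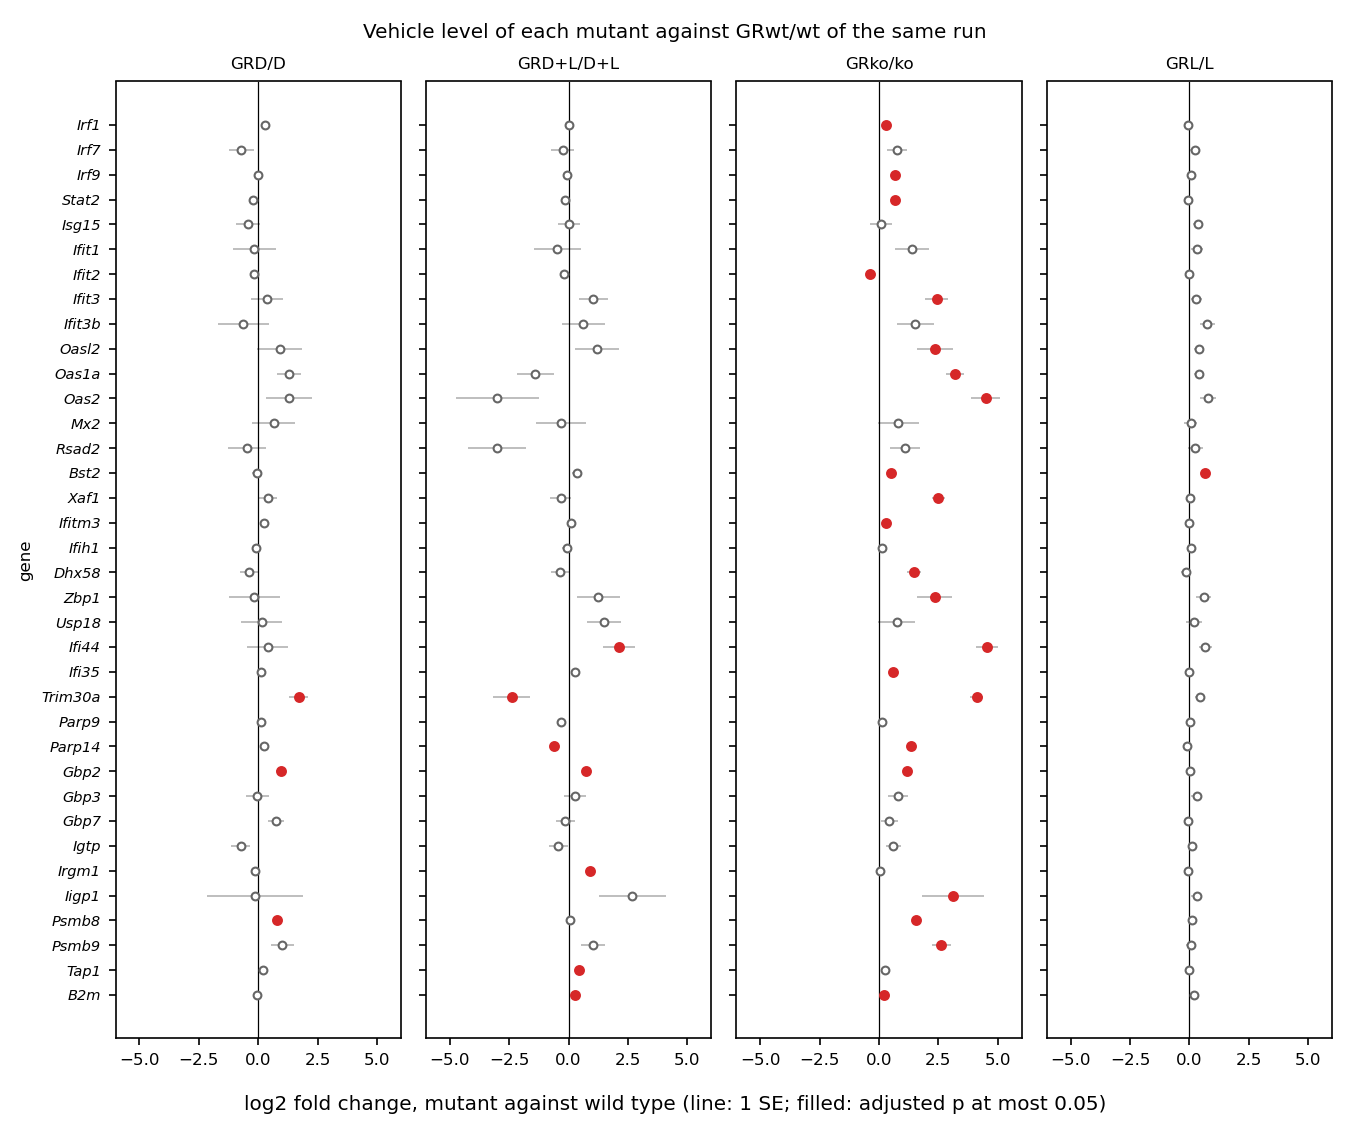
Log2 difference in vehicle level of each mutant against GRwt/wt of the same run (x axis) for the 36 tested ISGs (y axis). Points are edgeR estimates from 3 against 3 libraries, lines are 1 SE, and filled points passed an adjusted p of 0.05. GRko/ko holds 22 filled points, 21 of them above 0, and GRL/L holds 1.

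Parp14 was among the 3 genes with the smallest adjusted p in GRko/ko, with Trim30a and Psmb8. Parp14 read 12.5, 11.6 and 11.9 CPM in GRko/ko against 5.13, 4.86 and 4.15 in GRwt/wt (1.35, SE 0.12, adjusted p = 1.46e-11), and it was lower in GRD+L/D+L at 2.76, 3.39 and 3.06 CPM (-0.62, SE 0.16, adjusted p = 0.00334). GRD/D read 5.09, 6.26 and 5.19 CPM. With Dex, Parp14 read 3.37, 3.63 and 4.67 CPM in GRwt/wt of run 1, 4.16, 4.81 and 5.36 in GRD/D, 2.8, 3.06 and 3.1 in GRD+L/D+L and 12.2, 12.9 and 8.92 in GRko/ko, and in run 2 17.6, 16.1 and 17.7 CPM with vehicle and 15.2, 14.9 and 13.8 CPM with Dex in GRwt/wt and 15.7, 15.4 and 16.4 CPM with vehicle and 15.3, 17.1 and 15.2 CPM with Dex in GRL/L. Other called rises in GRko/ko were those of Oas1a (3.19), the apoptosis-linked Xaf1 (2.50), Ifit3 (2.43), the helicase Dhx58 (1.46), Irf9 (0.68), Stat2 (0.66), Ifi35 (0.58), Bst2 (0.51), Irf1 (0.31) and Ifitm3 (0.30). Bst2 was lost without vehicle 1 or 3 of GRko/ko or 2 or 3 of GRwt/wt (adjusted p 0.0529 to 0.0858), and Irf1 without vehicle 2 of either (0.094 and 0.11). Ifit2 was the one lower gene, at 11.8, 12 and 11.9 against 14.5, 16.1 and 15.2 CPM (-0.36, SE 0.09, adjusted p = 0.00152). Isg15 did not differ beyond the error, at 1.35, 1.19 and 1.71 CPM in GRko/ko. Of the windows of 50 bases in Oas1a, 57.6% also occur in other genes (Oas1g above all), as do 51.2% of Ifit3 and 45% of Ifit3b, so uniquely mapped reads cover only part of these genes.

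Antigen presentation genes differed in which mutants called them with vehicle, and none was called lower. Psmb8 read 3.11, 3.97 and 3.37 CPM in GRwt/wt of run 1, 5.16, 6.48 and 6.2 in GRD/D (0.78, SE 0.15, adjusted p = 0.00032), 4, 3.2 and 3.67 in GRD+L/D+L and 11.2, 10.2 and 9.67 in GRko/ko (1.57, SE 0.14, adjusted p = 3.1e-12). With Dex it read 2.66, 3.83 and 3.56 CPM in GRwt/wt, 5.08, 5.45 and 6.16 in GRD/D, 2.93, 2.74 and 3.42 in GRD+L/D+L and 7.83, 7.96 and 9.88 in GRko/ko. In run 2 it read 12.6, 13.6 and 14.3 CPM with vehicle and 12.9, 11.5 and 10.6 CPM with Dex in GRwt/wt and 14, 15.7 and 13.5 CPM with vehicle and 9.72, 10.8 and 11 CPM with Dex in GRL/L, where it fell with Dex. The second immunoproteasome subunit, Psmb9, rose by 2.63 in GRko/ko, but its exons overlap those of Tap1, which had 12701 counts to its 1074.

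Tap1, which carries peptides to class I molecules, read 9.28, 11.2 and 11.7 CPM in GRwt/wt of run 1, 12.7, 13.2 and 11.6 in GRD/D, 14.5, 15.7 and 13.5 in GRD+L/D+L and 12.6, 13 and 12.6 in GRko/ko with vehicle, and was called in GRD+L/D+L only (0.44, SE 0.11, adjusted p = 0.00136). Its Dex values were 9.75, 12.8 and 11.1 CPM in GRwt/wt, 11.1, 11.3 and 12.2 in GRD/D, 14, 12.6 and 14.2 in GRD+L/D+L and 14, 12.3 and 10.5 in GRko/ko. In run 2 it read 25.9, 25.1 and 23.9 CPM with vehicle and 26.7, 23.4 and 22.3 CPM with Dex in GRwt/wt and 26.4, 24.3 and 23.7 CPM with vehicle and 23.4, 21.9 and 20.7 CPM with Dex in GRL/L. B2m, the light chain of class I molecules, read 305, 308 and 263 CPM in GRwt/wt of run 1, 300, 323 and 234 in GRD/D, 352, 356 and 343 in GRD+L/D+L (0.26, SE 0.07, adjusted p = 0.00683) and 343, 321 and 347 in GRko/ko (0.21, SE 0.07, adjusted p = 0.0233). The B2m calls were small and depended on single libraries: GRD+L/D+L was lost without GRwt/wt vehicle 3 (adjusted p = 0.0878), and GRko/ko without GRko/ko vehicle 1 or 3 or GRwt/wt vehicle 3 (0.0744 to 0.202). With Dex, B2m read 290, 290 and 299 CPM in GRwt/wt, 284, 306 and 294 in GRD/D, 345, 341 and 351 in GRD+L/D+L and 333, 333 and 361 in GRko/ko, and in run 2 545, 536 and 506 CPM with vehicle and 615, 528 and 513 CPM with Dex in GRwt/wt and 579, 645 and 580 CPM with vehicle and 524, 580 and 568 CPM with Dex in GRL/L. No Dex change of Tap1 or B2m was called in any set.

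In GRD/D with vehicle, 3 of 36 ISGs were higher and none lower, where 9.55% of all genes differed and 5.66% were higher, and where 19 of 20 macrophage markers were higher, with a sum of 1040-1110 CPM. Beside Psmb8 and Trim30a this was Gbp2, at 6.29, 8.24 and 5.97 CPM against 3.05, 4.18 and 3.5 in GRwt/wt (0.94, SE 0.18, adjusted p = 0.00027). Gbp2 was higher in all 3 mutants of run 1, with 6.56, 6.2 and 5.17 CPM in GRD+L/D+L (0.75, SE 0.19, adjusted p = 0.00197) and 8.12, 7.26 and 8.98 CPM in GRko/ko (1.18, SE 0.17, adjusted p = 4.7e-07), all above the GRwt/wt libraries they share as controls. With Dex, Gbp2 read 2.6, 3.83 and 3.44 in GRwt/wt, 6.21, 6.99 and 5.89 in GRD/D, 6.43, 6.51 and 5.04 in GRD+L/D+L and 9.75, 8.75 and 8.32 CPM in GRko/ko. In GRD+L/D+L, 5 ISGs were higher (Irgm1, Gbp2, Tap1, B2m, Ifi44) and 2 lower (Trim30a, Parp14), where 29.9% of all genes differed and 19 of 20 macrophage markers were lower, with a sum of 45-56.5 CPM. Irgm1 led them (0.89, SE 0.10, adjusted p = 5.86e-09), with every vehicle library above those of GRwt/wt. In GRL/L, Bst2 alone was called (0.64, SE 0.13, adjusted p = 0.000556), 1 of 36 where 11.3% of all genes differed. Without vehicle library 2 of GRL/L the Bst2 difference was 0.33 (adjusted p = 0.0364). The macrophage markers, 19 of 20 higher in GRL/L, summed to 1230-1460 CPM against 661-709 in GRwt/wt, and their part was not tested. Without both number 4 libraries of GRwt/wt 5 were called, and the share of all genes in that fit was not computed.

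Further interferon genes outside the 37 gave the following counts with Dex, to be read beside the shares of all genes called (13.9% in GRwt/wt of run 1, 31.6% in run 2, 11.9% in GRD/D, 19.1% in GRL/L, 5% in GRD+L/D+L and 0% in GRko/ko). Of 53 tested other ISGs, 1 rose and 3 fell in GRwt/wt of run 1, 10 rose and 18 fell in run 2, 2 rose and 5 fell in GRD/D, 4 rose and 11 fell in GRL/L, 1 rose and 1 fell in GRD+L/D+L, and 0 changed in GRko/ko. These are 7.55%, 52.8%, 13.2%, 28.3%, 3.77% and 0% of the 53. In run 2 of GRwt/wt 34% fell, where 16.7% of all genes fell, and without Dex library 4 25 of 54 were called (17 lower, 31.5%, where 13% of all genes fell). That fit kept vehicle library 4. Ifi204, a DNA-binding family member, was raised in both runs of GRwt/wt (log2 0.50 and 1.04). Of 9 receptors, kinases and STATs, 2 fell in run 1 (22.2%) and 5 fell and 1 rose in run 2 (66.7%) of GRwt/wt, 4 fell and 1 rose in GRL/L (55.6%), 1 fell and 2 rose in GRD/D, and none was called in GRD+L/D+L or GRko/ko. In run 2 the receptor chain Ifnar1 fell by 0.37 in GRwt/wt and by 0.18 in GRL/L on the log2 scale, while Ifnar2 was not called. Of 9 inhibitors of the pathway, 2 rose in GRwt/wt of run 1 (22.2%) and 2 rose and 2 fell in run 2 (44.4%), among them Irf2, the repressor that competes with Irf1 (0.31 and 0.78), whereas Socs1 fell in GRL/L (-0.63) but was not called in GRwt/wt. In GRL/L 2 of the 9 rose and 4 fell (66.7%), and none was called in GRD/D, GRD+L/D+L or GRko/ko. Of 12 sensors and inducers of interferon, 1 fell in GRwt/wt of run 1 (8.33%), 5 in run 2 (41.7%), 2 in GRL/L (16.7%) and 1 in GRD/D (8.33%), none rose, and 0 changed in GRD+L/D+L and GRko/ko. Of 15 class I presentation genes, 1 fell in run 1 (6.67%), 1 rose and 1 fell in run 2 (13.3%), 6 fell in GRL/L (40%) and none was called in the other 3 mutants, and Nlrc5, the class I transactivator, fell in run 2 of GRwt/wt (-0.65) and in GRL/L (-0.87).

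With vehicle, the same lists split in GRko/ko in both directions. Of the 53 other ISGs, 23 were higher (43.4%) and 9 lower than in GRwt/wt, and of the 15 class I genes 6 were higher (40%) and 6 lower, where 45.7% of all genes were called and 24.4% were higher. H2-D1 (-0.84), H2-Q4 (-1.90), Tap2 (-0.81) and Tor3a (-1.20) were lower, H2-T23 (0.86), Slfn5 (4.62) and Ifnar1 (0.74) higher, and H2-K1 was not called (0.16, adjusted p = 0.0619). For these GRko/ko values too, genotype and strain cannot be told apart. Of the 9 receptors, kinases and STATs 4 were higher (44.4%) and 3 lower, of the 9 inhibitors 5 higher (55.6%), and of the 12 sensors 6 higher (50%) and 1 lower. In GRD/D the other ISGs counted 8 higher and 1 lower (17% called, 9.55% of all genes), in GRD+L/D+L 1 higher and 10 lower (20.8%, 29.9% of all genes), and in GRL/L 2 higher and 2 lower (7.55%, 11.3% of all genes). Between the runs of GRwt/wt, 40 of the 53 were higher in run 2 (75.5%) and 7 lower, and 12 of the 15 class I genes higher (80%) and 1 lower, where 72.4% of all genes differed and 40.2% were higher.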

How the data were processed

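RNA-seq of MEFs (TruSeq libraries) was analysed from the deposited table of raw read counts per gene. Per the labels and the submitters' processing notes, the authors used FastQC, mapped reads to mm10 with HISAT2 2.1.0, kept uniquely mapped reads and counted with featureCounts 2.0.0. DESeq2 is also named, and the annotation and strand setting are not given in the sources used here. Without strand, overlapping genes cannot be separated. The counts are not normalized, and totals ran from 15280166 to 28662608.

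Groups were taken from the labels. Counts were fitted for all 36 libraries with edgeR 4.0.16 (limma 3.58.1, R 4.3.3): TMM scaling, filterByExpr on the 12 combinations of genotype, run and treatment, and quasi-likelihood tests of contrasts within a run. The comparison of the runs in GRwt/wt was the exception. The pooled biological coefficient of variation was 0.0513. SEs are the absolute log2 fold change over the square root of F and are approximate. Symbols and coordinates came from GENCODE vM21 (GRCm38, which is mm10), which matched 55227 of 55487 rows. Ratios of genes with at most 3 counts in each library of one group carry exact binomial intervals with the 95% level, for counting error only. The fit was checked on simulated counts.

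Values in every library are given for the 4 transcription factors, for the 4 ISGs with the smallest adjusted p for Dex in each GRwt/wt set, for each mutant the 3 with the smallest adjusted p with vehicle and the 2 for the difference in Dex change, and for Psmb8, Tap1 and B2m. Isg15, Ifit1 and Iigp1 were added after their values were seen. The ISGs and the other gene lists were chosen with earlier results of these data known. Alternatives were DESeq2 1.42.0, DESeq2's size factors in edgeR, no filter (32584 genes), genotype and treatment plus run, only the libraries of the run, a replicate block, and each library left out. One gene of the pathway lists is not reported here by name. Leaving out both number 4 libraries of GRwt/wt in run 2 was added after seeing the data. Cultures of a genotype came from different mice and were given vehicle or Dex, but no source used here ties a replicate number to a culture. Over 18 same-numbered vehicle and Dex pairs the correlation of deviations from the group means ran from -0.357 to 0.43. All 3 GRko/ko pairs were above 0.1 (0.226, 0.247 and 0.43), and in each other set at least 1 pair was not, so pairing was taken to be shown for GRko/ko only.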

Additional observations from a re-analysis of the deposited data

Results flagged for a closer look

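The Dex change of 7 gene and genotype combinations differed from that of GRwt/wt in the same run by a test of the difference itself (edgeR interaction contrast). For Ifi35 the log2 differences were -0.553 in GRD/D, -0.564 in GRD+L/D+L and -0.711 in GRko/ko. For Irgm1 they were 0.519 in GRD+L/D+L and 0.667 in GRko/ko. For Irf1 the difference in GRko/ko was 0.657. For Bst2 the difference in GRL/L was -0.761, and it was lost without GRL/L vehicle 2, without GRL/L Dex 1, without GRwt/wt Dex 4 and with only the libraries of run 2 in the fit. Those of GRko/ko kept their call in all alternatives run, and the other 4 were lost without single libraries. The 3 Ifi35 tests, the Irgm1 tests and the Irf1 test share the same 6 GRwt/wt libraries of run 1, so they are not independent of each other. With 3 libraries per group, no test for single outlying libraries was made.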

How the results depend on the processing

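No called ISG changed direction under any alternative. Over single genes called, 1100 of 1226 values under an alternative kept their call and 126 lost it. Of 221 counts of called ISGs, 175 stayed within 1.5 times. The largest shift of the median of all genes between TMM and DESeq2's size factors was -0.0535 log2 units, between the runs of GRwt/wt. DESeq2 gave 6 calls with Dex in GRL/L and 1 in GRD+L/D+L. No filter gave 2 with Dex in GRD/D, 1 in GRD+L/D+L, 2 with vehicle in GRL/L, and differences in Dex change at 3 ISGs in GRD/D, 2 in GRL/L and 1 between the runs of GRwt/wt. A model of genotype and treatment plus run pooled GRwt/wt of both runs, so its comparisons were not kept within a run. It gave 7 with Dex in the pooled GRwt/wt, 1 with Dex in GRD+L/D+L and 5 with vehicle in GRD/D. In that model the Dex change differed at 2 in GRD/D and 6 in GRko/ko. Only the libraries of the run gave 5 with Dex in GRL/L, 12 with vehicle in GRD+L/D+L and a difference in Dex change at 0 in GRL/L. Without both number 4 libraries, 5 were called with vehicle in GRL/L and the difference in Dex change was at 0. The cause of these shifts was not tested. Among the alternatives, the share of all genes called was computed only for the fit without GRwt/wt Dex library 4, so the other counts have no such share beside them.

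Leaving out single libraries gave counts of 7 to 14 with Dex in GRwt/wt of run 2, 6 to 15 with Dex in GRL/L, 1 to 2 with Dex in GRD+L/D+L, 0 to 1 for the difference in Dex change in GRD/D, 0 to 2 for the difference in Dex change in GRD+L/D+L and 0 to 1 for the difference in Dex change in GRL/L. The replicate block, in which same-numbered libraries share a term, was set within each genotype and run for Dex changes. For vehicle levels of run 1 it was set over the genotypes. The Dex block gave 1 call in GRD+L/D+L. With it Ifit2 was lost in GRwt/wt of run 1 and in GRD+L/D+L. Gbp7 and Parp14 were lost with it in GRwt/wt of run 2 (adjusted p = 0.0637 and 0.0596). The vehicle block lost Iigp1 in GRko/ko (0.0564). Neither block lost another call of a named gene. Of 18 same-numbered pairs, 6 correlated best with their own number, all 3 of GRko/ko among them, and the Dex block left 0 called in GRko/ko. Low counts limit what run 1 can show: Mx1, Oas2, Iigp1, Zbp1 and Rsad2 had few reads in GRwt/wt.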
